A study of Mus musculus with 2 samples.

Results

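The receiving side of the hedgehog pathway was described in 2 single cells from the eye rim of CD1 mice, an albino outbred strain. It comprised 9 genes out of 18194 named on the array: the receptor Ptch1, the signal transducer Smo, the co-receptors Cdon, Boc and Gas1, the ligand trap Hhip, and the transcription factors Gli1, Gli2 and Gli3. Their probe sets were chosen by gene symbol alone, as every one annotated with exactly 1 of these symbols, which gave 24 probe sets. The 9 genes themselves were chosen with earlier results of these data known. One cell was harvested on the day of birth (postnatal day 0, the P0 cell) and the other at embryonic day 12.5 (the E12.5 cell). Each came from a dissociated retina, was hybridised to its own array, and carries no allele or agent in the labels. The submitters placed both cells in the ciliary body region from the genes they expressed. Since each age is a single cell, nothing could be tested and no replicate checks a value: every difference is between these 2 cells, and the number of arrays limits the precision.

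In the hedgehog pathway, secreted ligands (Shh, Ihh, Dhh) bind the membrane protein Ptch1, which otherwise holds the transducer Smo inactive. Cdon, Boc and Gas1 help Ptch1 to bind ligand, and Hhip binds ligand without passing the signal on. Active Smo acts through the primary cilium on the zinc finger proteins Gli1, Gli2 and Gli3. Gli2 serves mainly as an activator, Gli3 is mostly cut to a repressor when ligand is lacking, and Gli1 is an activator whose own gene is switched on by the pathway. Ptch1 and Hhip are also known target genes, so that each limits the response that switches it on. In the developing eye, Shh from the midline patterns the optic vesicle, and Shh from retinal ganglion cells later acts on progenitors.

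Values are MAS5 signals on a linear scale. A gene or probe set was counted as detected when its signal exceeded the limit of its array, 349.6 at P0 and 259.8 at E12.5, set by 174 probe sets of families such as olfactory receptors and protamines, which have no known part in eye biology. A gene or probe set was called higher in a cell when it was above the limit there and the ratio reached 4-fold after each signal had been raised to its limit. A fold against an undetected value is a lower bound, written "at least". "At P0" and "at E12.5" refer to these single cells. Of several probe sets, the one whose log2 signals averaged highest over the cells stands for its gene. Among the 974 genes with several probe sets detected in both cells, the log2 ratio differed between probe sets of a gene with an SD of 0.83. That SD holds no variation between cells.

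Of all named genes, 28.3% were detected at P0 and 30.2% at E12.5. The 3′ to 5′ signal ratio of β-actin was 2.20 at P0 and 6.17 at E12.5, and that of Gapdh was 1.43 at P0 and 1.06 at E12.5. The 18S ribosomal RNA probe sets read 258 to 1696 at P0 and 7813 to 10783 at E12.5. Of 11 ciliary margin genes, 5 were detected at P0 and 7 at E12.5, with 4 in both (Zic1, Zic2, Wfdc1 and Rdh10), Bmp7 at P0 only, and Otx1, Mecom and Gja1 at E12.5 only. Of the 11, 1 was called higher at P0 and 4 at E12.5 (9.09% and 36.4%), against 9.22% and 7.3% of all named genes. Among these calls, Wfdc1 read 414 at P0, near its limit, and 10696 at E12.5, 25.8-fold higher at E12.5. Of 10 retinal progenitor genes, 8 were detected at P0 and 10 at E12.5, and of 8 glial genes, 6 at P0 and 2 at E12.5. Of 8 pigment epithelium genes and 5 blood and microglial genes, 0 were above the limit in either cell.

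The 9 genes differed in which cell they were seen in. Ptch1, Smo, Cdon and Gli3 were detected at both ages, which made 4 genes at P0 and, with 2 more, 6 at E12.5. Gas1 and Gli2 were above the limit at E12.5 alone, and Boc, Hhip and Gli1 in neither cell. Over the whole array, 5157 of 18194 named genes were detected at P0, 5495 at E12.5 and 3389 in both. Detection in 1 cell alone was thus common, and with 9 genes these counts set no pattern apart. Ptch1 was the 1 gene called at least 4-fold higher at P0, against 9.22% of all named genes, and Cdon the 1 gene called higher at E12.5, against 7.3%. Each count is 1 of 9, so neither share stands far from that background.

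**Figure D1:**
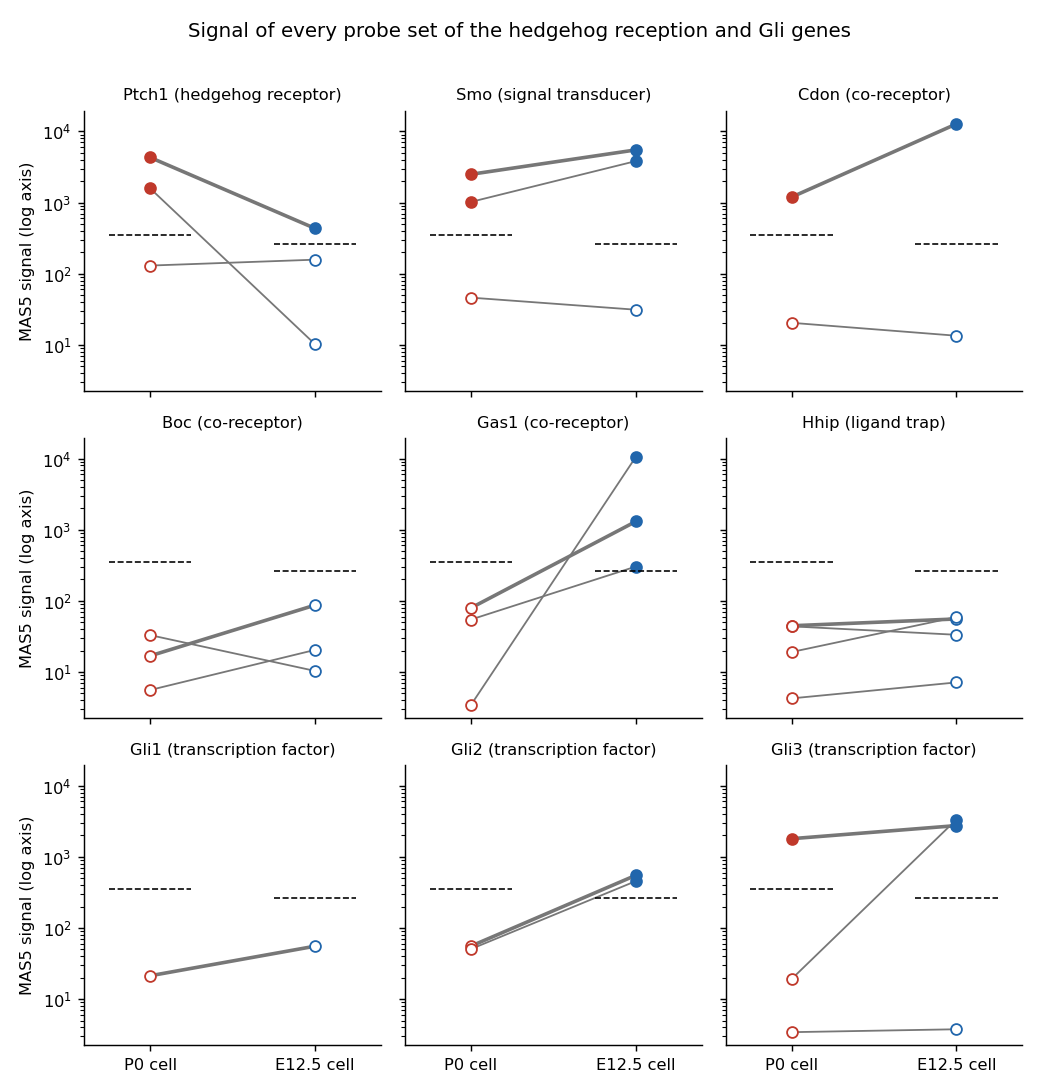
MAS5 signal (log axis) of each of the 24 probe sets in the cell from P0 (left, red) and that from E12.5 (right, blue), 1 panel per gene; a line joins the values of 1 probe set, the thick line is the probe set that represents the gene, filled points are above the limit of the array (dashed) and open points are not. Ptch1 slopes down from the P0 side on its pair of detected probe sets, Smo, Cdon, Gas1, Gli2 and Gli3 slope up on all their detected ones, and all points of Boc, Hhip and Gli1 are open.

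Ptch1, the receptor, was brighter at P0. Its representing probe set (1428853_at) had a signal of 4307 at P0 and 433 at E12.5, a 9.95-fold difference. These signals exceeded those of 94.9% of the probe sets on the P0 array and 81.2% on the E12.5 array. On this probe set Ptch1 was thus detected in both cells and well up the P0 array. At E12.5, it was the only 1 of the 3 probe sets above the limit. The second probe set (1439663_at) read 1581 at P0 and 10.2 at E12.5, at least 6.09-fold higher at P0. The third (1450824_at), at 130.1 at P0 and 157 at E12.5, was above neither limit. The log2 ratio of Ptch1 was 3.32, and it was 2.44 with the arrays scaled to the hybridisation spike-ins. The log-scale mean over its 3 probe sets was 960.3 at P0 and 88.5 at E12.5. That E12.5 mean was under the limit, so the log2 ratio is bounded at 1.89 or more, short of the 4-fold rule, and the call was lost.

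Smo, the 7-pass membrane protein that passes the signal on, went the other way by less than 4-fold. One probe set (1427048_at) read 2496 at P0 and 5499 at E12.5, 2.20-fold higher at E12.5. A second (1427049_s_at) read 1021 at P0 and 3827 at E12.5, 3.75-fold higher at E12.5. Receptor and transducer thus differed between the cells in opposite directions, each on 2 probe sets, but only Ptch1 was called. The log2 ratio of -1.14 that represents Smo was within the SD of 1.46 over all genes detected in both cells. The third Smo probe set (1442215_at) was above neither limit, with 46.1 at P0 and 31.2 at E12.5. Scaled to the spike-ins, the log2 ratio of Smo was -2.01 in place of -1.14, which just passes the 4-fold rule. That scaling moved the median log2 ratio of all genes detected in both cells to -0.87, so relative to other genes the ratio of Smo kept its size. The same scaling changed the share of all calls that were higher at P0 to 32.8%, against 55.8% as deposited.

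Among the co-receptors, Cdon and Gas1 were the brighter at E12.5. Cdon encodes a cell surface protein of the immunoglobulin superfamily. Its detected probe set (1434957_at) read 1193 at P0 and 12766 at E12.5, with a log2 ratio of -3.42. The P0 signal still lay above 85.8% of the probe sets of its array, so the gene was detected at both ages. The second Cdon probe set (1421452_at), with 20.4 at P0 and 13.4 at E12.5, was above neither limit. The log-scale mean over both probe sets was 156 at P0, under the limit, and 414 at E12.5. The log2 ratio is then bounded at -0.24 or below, and the call was lost.

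Gas1 encodes a surface protein held by a lipid anchor, and all 3 of its probe sets were detected at E12.5 and under the limit at P0. The representing probe set (1448494_at) read 79.3 at P0 and 1305 at E12.5, at least 3.73-fold higher at E12.5, just short of the 4-fold rule. Another (1416855_at) read 3.42 at P0 and 10545 at E12.5, at least 30.2-fold higher at E12.5. The third (1456322_at) read 54.5 at P0 and 303 at E12.5; since 303 is under the P0 limit, no fold is given. Gas1 was therefore detected at E12.5 by every probe set, while whether it met the 4-fold rule depended on the probe set taken. Boc, the paralogue of Cdon, was above the limit in neither cell: its 3 probe sets ran between 5.57 and 32.9 at P0 and between 10.3 and 87.0 at E12.5.

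Promoter sequences from RefSeq (assembly GRCm38.p6) covered 7 of the 9 genes, with 250 bases before and 50 after the annotated start. Those of Ptch1, called higher at P0, and of Gas1, detected at E12.5 only, are printed 5′ to 3′ on the coding strand, with the 50 transcribed bases in capitals.
Ptch1: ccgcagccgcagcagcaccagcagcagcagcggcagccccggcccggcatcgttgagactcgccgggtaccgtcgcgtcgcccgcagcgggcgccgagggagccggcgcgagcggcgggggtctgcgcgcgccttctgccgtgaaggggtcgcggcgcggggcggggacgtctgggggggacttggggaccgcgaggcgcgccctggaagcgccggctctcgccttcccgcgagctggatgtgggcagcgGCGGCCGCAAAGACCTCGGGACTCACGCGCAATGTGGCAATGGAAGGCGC
Gas1: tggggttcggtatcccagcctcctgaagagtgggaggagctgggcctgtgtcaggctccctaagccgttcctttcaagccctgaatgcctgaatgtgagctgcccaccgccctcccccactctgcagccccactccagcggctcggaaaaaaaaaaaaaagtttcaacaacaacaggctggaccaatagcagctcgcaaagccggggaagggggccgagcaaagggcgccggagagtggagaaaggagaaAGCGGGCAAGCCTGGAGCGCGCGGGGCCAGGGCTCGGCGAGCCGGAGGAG
The Ptch1 window is chr13:63565686-63565985 on the minus strand, and its start lies 7725 bases inside the span annotated for the gene. The Gas1 window is chr13:60177486-60177785 on the minus strand, and its start is the outer end of the gene. The GC content was 76.3% in the Ptch1 window and 62.3% in that of Gas1, against a median of 52.7% over 32851 promoters. The Ptch1 window held 47 CpG pairs and that of Gas1 17, against a median of 7. In this assembly Ptch1, Gas1 and Gli3 all lie on chromosome 13, Smo on 6, Cdon on 9, Boc on 16, Hhip on 8, Gli1 on 10 and Gli2 on 1. The Gli binding motif TGGGTGGTC, searched on both strands, occurred in 0 of the 7 promoters and in 0.253% of all promoters. Its looser form TGGGNGGNC, which includes the first, occurred in 6.72% of all promoters and in 2 of the 7, as TGGGGGGGC in Smo and as TGGGGGGAC in Gli2. The window of Cdon is not printed, because its start lies 30548 bases inside the annotated gene.

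The ligand trap and the most direct target among the Gli genes were not detected. Hhip, a membrane-anchored protein that competes for ligand, had 4 probe sets with signals between 4.25 and 44.6 at P0 and between 7.13 and 59.2 at E12.5. Gli1 had 1 probe set (1449058_at), with 21.3 at P0 and 55.4 at E12.5. All these values lay under the limits, also under the lower limits at the 95th percentile of the background probe sets (91.8 at P0 and 113 at E12.5). Of the 3 known target genes in this set, Ptch1 alone was detected. A transcript below the limit in a single amplified cell was not detected, which does not show that it was absent.

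Gli2 and Gli3, on which the signal acts first, were detected at E12.5 by every probe set but 1. Gli2 read 55.5 at P0 and 549.9 at E12.5 on one probe set (1446086_s_at), at least 1.57-fold higher at E12.5. On the other (1459211_at) it read 50.5 at P0 and 456 at E12.5, at least 1.30-fold higher at E12.5. The bounds are small because the E12.5 signals were not far above the P0 limit. Gli3 read 1799 at P0 and 2749.6 at E12.5 on its representing probe set (1456067_at), 1.53-fold higher at E12.5. A second probe set (1455154_at) read 19.1 at P0 and 3349 at E12.5, at least 9.58-fold higher at E12.5. The probe sets of Gli3 thus gave similar E12.5 detection but disagreed on whether the P0 cell held the transcript. The third (1450525_at), with 3.43 at P0 and 3.77 at E12.5, was above neither limit.

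**Figure D2:**
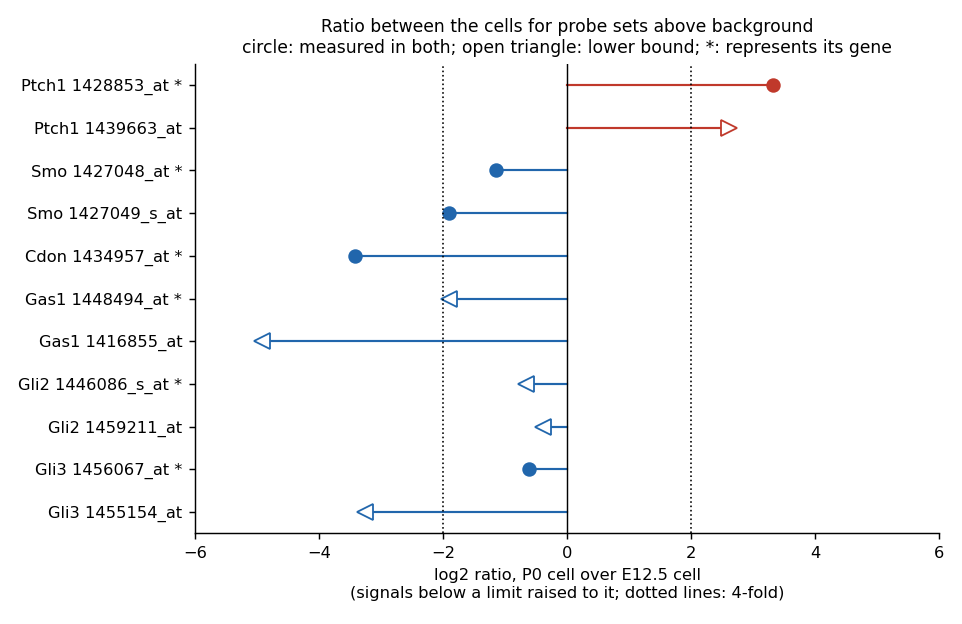
Log2 ratio of the P0 cell over the E12.5 cell for the probe sets detected in at least 1 cell, leaving out the third one of Gas1, for which no fold is given; circles are measured in both cells, open triangles are lower bounds, dotted lines mark 4-fold, and a star marks the probe set that represents its gene. Only the pair of Ptch1 probe sets lies on the P0 side, at 3.32 and 2.61.

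Counted by probe set, 6 of the 24 were above the limit at P0, against 22.3% of all probe sets with 1 gene symbol, and 11 at E12.5, against 24%. Of the 12 above a limit in at least 1 cell, 10 had the higher signal at E12.5, the exceptions being the pair of Ptch1. Only 5 of the 12 were above both limits. The rest passed in 1 cell alone, mostly at E12.5, and passing in 1 cell alone largely set their direction. The limit was lower at E12.5. Among those passing at E12.5 alone, only the third probe set of Gas1 (303) read less than the P0 limit of 349.6. Probe sets of the same gene are not separate evidence, and the matching share over the whole array was not computed. In all, 2 probe sets were called higher at P0 (7.2% of all probe sets) and 3 at E12.5 (5.68%), 1 each of Cdon, Gas1 and Gli3. Of the 24, 12 were above neither limit. Of these 12, 8 belong to Boc, Hhip and Gli1, which had no detected probe set, and 4 belong to genes with a detected one (1 each of Ptch1, Smo, Cdon and Gli3). Of the 1997 called genes with a further probe set, 77.2% had at least 1 that was above neither limit. That share bears on Ptch1 and Cdon only, since Smo and Gli3 were detected but not called. The 4 genes detected in both cells had a median log2 ratio of -0.88, and the 3389 such genes on the array had a median of 0.0014 with an SD of 1.46.

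The count of genes higher at E12.5 rested on the limit and on the probe set taken. With the limit at the 95th percentile, Cdon, Gas1 and Gli2 were called higher at E12.5, 3 of 9, against 11% of all named genes. With each gene represented by the probe set brightest in either cell, a choice made after seeing the data, Cdon, Gas1 and Gli3 were, again 3 of 9, against 8.12%. Ptch1 remained the 1 gene called higher at P0 under both settings, against 11% and 10% of all named genes. With the mean over all probe sets of a gene, Gas1 was the 1 gene called higher at E12.5, against 3.85% of all named genes, and 0 were called higher at P0, against 4.72%.

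**Figure D3:**
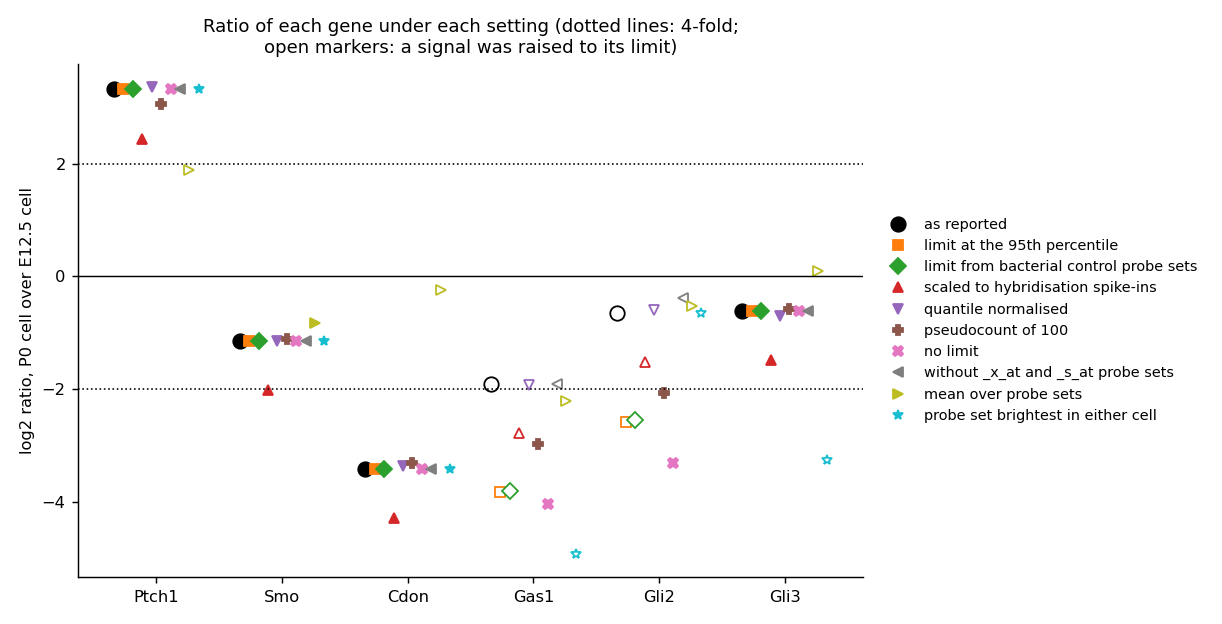
Log2 ratio of the P0 cell over the E12.5 cell for the 6 genes detected in at least 1 cell, as reported and under 9 other settings; dotted lines mark 4-fold, and open markers are ratios in which at least 1 signal was raised to its limit, mostly bounds on the true ratio. Ptch1 lies between 1.89 and 3.36, Gas1 between -4.91 and -1.90 and Cdon between -4.29 and -0.24; the 1.89, the -0.24, and both ends for Gas1 are bounds.

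Other genes of the pathway were examined by role, 52 with a probe set of their own outside the 9 genes. Of them, 22 were detected at P0 and 26 at E12.5. As to calls, 7 were called higher at P0 and 9 at E12.5, or 13.5% and 17.3%, against 9.22% and 7.3% of all named genes. The median log2 ratio of the 15 detected in both cells was 0.0044.

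No ligand gene was above the limit. Shh read 208 at P0 and 61.3 at E12.5, Ihh 81.7 at P0 and 90.0 at E12.5, and Dhh 13.2 at P0 and 55.0 at E12.5. The P0 signal of Shh exceeded the lower limit at the 95th percentile, and the others exceeded neither lower limit. Disp1, which releases lipid-modified ligand from the cells that make it, read 1394 at P0 and 82.5 at E12.5, at least 5.37-fold higher at P0. Scube3, a secreted protein of the family that carries released ligand, read 91.0 at P0 and 3299 at E12.5, at least 9.44-fold higher at E12.5. The further probe set of Disp1 was above neither limit, and Scube3 has none. Of the 8 genes on this list, 1 was called at each age (12.5%), against 9.22% of all named genes at P0 and 7.3% at E12.5. These single calls give no direction for the release factors.

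Of 7 further receptors and binding proteins, 0 were called higher at P0 and 1 at E12.5 (14.3%), against 9.22% and 7.3% of all named genes. The gene called was Gpc6, a cell surface heparan sulfate proteoglycan. Gpc6 read 33.8 at P0 and 4019.9 at E12.5, at least 11.5-fold higher at E12.5. Of its 4 further probe sets, 1 was called so too. Ext1, which builds heparan sulfate chains, was detected in both cells, with 2774 at P0 and 4494 at E12.5.

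The steps between Smo and Gli were the best detected of the 4 lists, with 13 of 24 genes detected at P0, 15 at E12.5 and 10 in both. Of these 24, 4 were called higher at P0 (16.7%) and 3 at E12.5 (12.5%), so that no direction was shared. Of all named genes, 9.22% were called higher at P0 and 7.3% at E12.5. Higher at P0 were Fbxw11, a ubiquitin ligase subunit that marks Gli proteins for cutting (9502 at P0 and 42.1 at E12.5, at least 36.6-fold), and the kinase gene Gsk3b, whose product phosphorylates Gli proteins (6170.5 at P0 and 7.62 at E12.5, at least 23.8-fold). Of the 4 further probe sets of Fbxw11, 1 was called higher at P0 as well and 1 at E12.5, and 0 of the 5 further ones of Gsk3b were called higher at P0.

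Genes of the ciliary side of the pathway were also among those higher at P0. Evc2, a protein of the cilium base that binds Smo, read 2845 at P0 and 179 at E12.5, at least 10.95-fold higher at P0. Tulp3, an adaptor that brings receptors into the cilium, read 2445 at P0 and 299.5 at E12.5, near its limit, 8.16-fold higher at P0. Of the further probe sets, 0 of 2 of Tulp3 were above a limit, and Evc2 has none. On the E12.5 side, Gpr161, a ciliary receptor that holds the pathway off, read 31.0 at P0 and 1225 at E12.5, at least 3.50-fold higher at E12.5. Kif7, the kinesin that organises Gli proteins at the tip of the cilium, read 80.4 at P0 and 1062 at E12.5, at least 3.04-fold higher at E12.5. Neither of these last genes met the 4-fold rule.

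Called higher at E12.5 were the kinase genes Stk36, Csnk1e and Prkaca. Stk36 read 63.5 at P0 and 2098 at E12.5, a log2 ratio of -2.59 or beyond. Csnk1e read 43.0 at P0 and 1654 at E12.5, at least 4.73-fold higher. Of the further probe sets, 0 of 1 of Stk36 and 0 of 2 of Csnk1e were above a limit. The 1 further probe set of Prkaca was above a limit but was not called. Prkaca, a catalytic subunit of the protein kinase A that starts Gli3 cutting, read 781 at P0 and 3309.7 at E12.5 (4.24-fold), while Prkacb, the other catalytic subunit, had the higher signal at P0 (974 at P0 and 290.1 at E12.5). Several genes of this group were detected in both cells with little difference: Gnas read 19217 at P0 and 15342 at E12.5, Cul3 7504 at P0 and 7481 at E12.5, and Csnk1a1 5897 at P0 and 5446 at E12.5. Prkar1a, Csnk1d, Cul1 and Btrc were likewise detected in both and differed by 1.19-fold to 2.21-fold. Sufu, the cytoplasmic inhibitor of Gli proteins, was above the limit in neither cell, with 225 at P0 and 88.5 at E12.5.

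**Figure D4:**
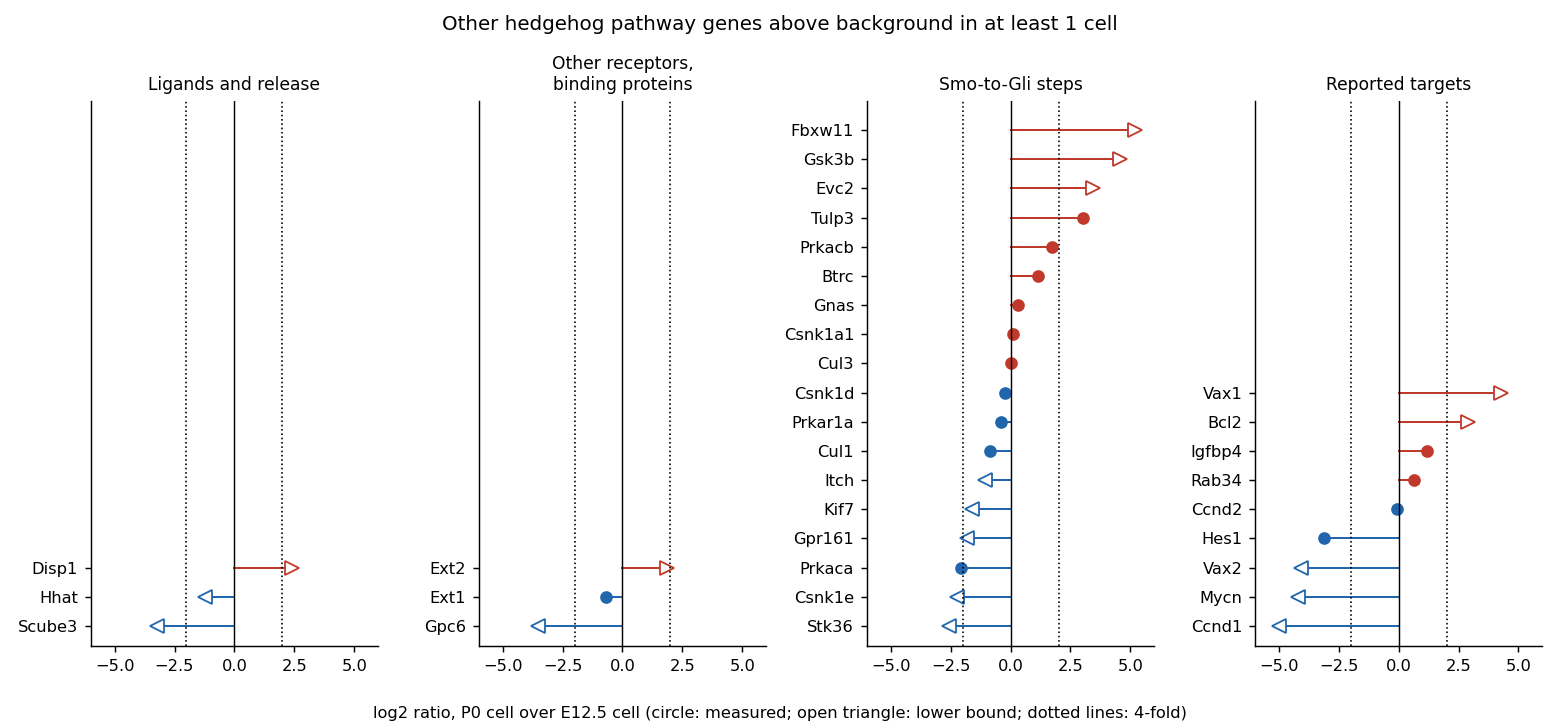
Log2 ratio of the P0 cell over the E12.5 cell for the other pathway genes detected in at least 1 cell, in 4 panels by role; circles are measured in both cells, open triangles are lower bounds, and dotted lines mark 4-fold. Genes of each panel lie on both sides of 0, from Fbxw11 at 5.19 to Ccnd1 at -5.00.

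Of 13 genes reported as targets in eye or neural tissue, 2 were called higher at P0 and 4 at E12.5. These are 15.4% and 30.8%, against 9.22% and 7.3% of all named genes. Higher at E12.5 were the cyclin D1 gene Ccnd1 (309 at P0 and 11179.8 at E12.5, at least 32.0-fold), the growth-promoting factor Mycn (6.90 at P0 and 6362 at E12.5, at least 18.2-fold) and Hes1, a repressor of neuron formation (479.7 at P0 and 4139.7 at E12.5, 8.63-fold). Both further probe sets of Ccnd1 were called the same way, while of the 2 of Mycn, 1 was above a limit and 0 were called, and Hes1 has no further probe set. The pair of ventral eye homeobox genes was split: Vax1 read 4946 at P0 and 6.76 at E12.5 (at least 19.0-fold higher at P0), and Vax2 read 5.38 at P0 and 5823 at E12.5 (at least 16.7-fold higher at E12.5). Bcl2, which protects cells from death, read 1948 at P0 and 78.3 at E12.5, at least 7.50-fold higher at P0. Of the further probe sets, 0 of 4 of Bcl2 and 0 of 1 of Vax1 were above a limit, and Vax2 has none. Ccnd2 (13623 at P0 and 14149 at E12.5), Rab34 (1362 at P0 and 886 at E12.5) and Igfbp4 (17957 at P0 and 7999 at E12.5) were within 4-fold, each detected in both cells. The listed targets thus did not move in 1 direction with Ptch1. Ccnd1, Mycn and Hes1 also answer to other pathways, and the part of this in their values was not tested.

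Markers of other cell classes differed between the cells along with these genes. The summed signal of the 10 progenitor genes was 40220.2 at P0 and 92889 at E12.5. Of them, 1 was called higher at P0 (Lhx2) and 5 at E12.5 (Pax6, Hes1, Sfrp2, Fgf15 and Ccnd1). These are 10% and 50%, against 9.22% and 7.3% of all named genes. Rax, Six3, Six6 and Sox2, detected in both cells, were within 4-fold. The summed signal of the 8 glial genes was 36317 at P0 and 10802.5 at E12.5. Of them, 4 were called higher at P0 (Gfap, S100b, Rlbp1 and Pdgfra) and 0 at E12.5. The share at P0 was 50%, against 9.22% of all named genes. Of the further probe sets, 0 of 2 of Gfap were above a limit. The 1 further probe set of S100b and 1 of 2 of Pdgfra were called the same way, and Rlbp1 has none. Aqp4 and Aldh1l1 were below the limit in both cells. Slc1a3 and Glul, detected in both cells, were within 4-fold, and Pdgfra is also a gene of mesenchyme. Of 9 genes of periocular mesenchyme, a tissue in which hedgehog genes are also active, 1 was detected at P0 (Col1a2, 2653) and 0 at E12.5. Of 9 ganglion cell genes, Ebf3 (1041) was detected at P0 and Gap43 (1457) at E12.5, and of 6 vessel genes Rgs5 (833) at P0. Above a limit were 0 of 2 further probe sets of Col1a2, 0 of 2 of Ebf3 and 1 of 3 of Rgs5. Gap43 has no further probe set. The part of these marker differences in those of Ptch1, Cdon, Gas1, Gli2 and Gli3 was not tested.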

How the data were processed

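Gene expression was measured in 2 single cells. Per the labels' protocols, mRNA of each cell was copied with an oligo dT primer, tailed and amplified by 35 cycles of PCR, which favours 3′ ends and can lose a transcript. The deposited values are signal intensity on a linear scale, made by the authors with MAS5 per the submitters' processing notes, which scales each array on its own; its version, detection calls and any genome build being not given in the sources used here. A single gene symbol was available for 34958 of 45101 probe sets, 34754 of them updated through RefSeq. Limits were the 99th percentile of 174 probe sets from 10 families (such as olfactory receptors and protamines), whose naming patterns were written with the data at hand. Calls needed a signal above the limit and a ratio of 4. With 1 cell per age no test was made. The genes, lists and rules were chosen with earlier results of these data known. All 9 genes are named; other pathway genes when called or above the limit in both cells, marker genes when above it in either. Genes given beyond that rule (the ligands, Sufu, Gpr161, Kif7, Aqp4 and Aldh1l1) were picked after their values were seen. The scoring was tested on simulated data, with changes placed only on genes far above the limits. It therefore does not cover the recovery of changes near the limits. Python 3.11.15, pandas 2.3.3 and numpy 2.4.6 were used. Alternatives covered limit, scaling, pseudocount (100), filter and choice of probe set. No interval is given, since each age is 1 cell.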

Additional observations from a re-analysis of the deposited data

How the results depend on the processing

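No paired analysis was possible because each age has 1 cell, so no replicate could be left out either. Of 108 values recomputed under 8 planned settings and 1 added after seeing the data, 80 were counts within 1.5 times the reported one, or ratios that kept their call or, uncalled, moved by less than the SD between probe sets, and 0 called values reversed sign. The number of the 9 genes called higher at E12.5, 1 as reported, was 3 at the 95th percentile limit (11.04% of all named genes were called that way), 3 with the limit from bacterial control probe sets (11.01%), 3 with spike-in scaling (11.7%), 3 with a pseudocount of 100 (10.4%), 4 with no limit (22.6%) and 3 with the probe set brightest in either cell (8.12%), against 7.3% as reported. With the mean over probe sets, 2 genes were detected at P0 in place of 4, and 0 were called higher at P0 in place of 1, while the other pathway genes called numbered 1 for the P0 cell in place of 7 and 5 for the E12.5 cell in place of 9. Averaging a detected probe set with one below the limit lowers the mean by construction. With no limit, 8 other pathway genes were called higher at P0 and 19 at E12.5, where 21.6% and 22.6% of all named genes were called. For the uncalled Gli3, the mean over probe sets was 49.0 at P0, under the limit, and 326 at E12.5, so the value of 0.10 obtained after raising the P0 mean to its limit gives neither a fold nor a direction. Signals near the limits, such as those of Gli2 and the third probe set of Gas1, are weakly resolved from background.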

Other observations

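The hedgehog probe sets were also set out by the kind of sequence they are annotated with. Of the 24 probe sets, 5 are annotated with a RefSeq transcript (1 each of Ptch1, Cdon, Hhip, Gli1 and Gli3), and 0 of these were above a limit in either cell. Of the other 19, including 3 with no sequence given, 12 were above a limit in at least 1 cell. Those counts include Hhip and Gli1, which had no detected probe set. In the 3 members that have both kinds and at least 1 probe set above a limit (Ptch1, Cdon and Gli3), 0 of 3 RefSeq-transcript probe sets and 5 of 5 others were above one. In the 1242 genes of the whole array chosen in that same way, 70.5% of 1563 RefSeq-transcript probe sets and 52.3% of 2420 others were above one. The only probe set of Gli1 is of the RefSeq kind, so its value has no second reading. Where these probe sets lie along their transcripts was not analysed here.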
